A study of Saccharomyces cerevisiae with 32 samples.

Results

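The 34 MRPL genes encode proteins of the large subunit of the yeast mitochondrial ribosome. They were taken from the open reading frames of the deposited tables by systematic name, 34 of 6696, and all 34 carry an MRPL symbol in the RefSeq annotation of the R64 assembly. RNA-seq and ribosome profiling, which sequences the mRNA fragments protected by ribosomes (footprints), were carried out in 8 natural isolates of Saccharomyces cerevisiae. The isolates are AMH, BAN, BED and BPL, together with BTT, CMP, CPI and CQC, each labelled wild type and grown in SC medium, with no strain marked as a reference. Each isolate has 2 RNA-seq and 2 ribosome profiling libraries, 32 in all. Each isolate was therefore set against the mean of the other 7. Nothing in the labels tells whether replicates came from separate cultures; the p-values therefore reflect only the spread of these libraries, which may be technical.

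The mitochondrial ribosome translates the few membrane proteins of the respiratory chain and ATP synthase that the mitochondrial genome encodes, while its own proteins are encoded in the nucleus, made in the cytosol and imported. The large subunit joins amino acids and holds the tunnel through which the nascent protein leaves towards the inner membrane. In yeast, respiratory genes are activated by the Hap2/3/4/5 complex when cells leave glucose fermentation, and the RNA-binding protein Puf3 binds mRNAs of mitochondrial ribosomal proteins. By family name in RefSeq, 14 of the 34 belong to universal ribosomal protein families (uL), 7 to bacterial families (bL) and 13 to mitochondrial families (mL). The median footprint level was 27.2, 28.7 and 26.6 counts per 1000000 reads (CPM, scaled by the trimmed mean of M-values, TMM) per 100 codons for uL, bL and mL genes, and the median mRNA level 29.6, 45.2 and 32.3.

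Reads on open reading frames numbered 27621 to 4391002 in the footprint libraries and 3703931 to 11570247 in the RNA-seq libraries. The 34 genes took 0.188% to 0.314% of the mRNA reads and 0.104% to 0.313% of the footprint reads. Every gene had reads in every RNA-seq library, with at least 13. Depth was lowest in the footprint libraries of BAN, where the median gene had 3 and 2 reads, and of CMP, where it had 10.5 and 5.5; in BTT it had 149.5 and 200. BAN replicate 2 also stood apart among the RNA-seq libraries, with a TMM scaling factor of 0.695 against 1.001 in BAN replicate 1. Results on BAN, and on the footprints of CMP, rest on these libraries and are given without them where that changes a call.

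All 34 genes differed in mRNA level between the isolates (edgeR quasi-likelihood F-test, adjusted p under 0.05), where 95.7% of the 6269 genes tested did. As a group, the genes were highest in CMP and lowest in BED. The median log2 mRNA level of the 34 genes, relative to each gene's mean over isolates, was 0.48 and 0.43 in the CMP libraries. It was 0.15 and 0.41 in BAN and 0.12 and 0.19 in CQC. In BED it was -0.36 and -0.43, and in AMH -0.38 and -0.11. BPL, BTT and CPI lay between, from -0.15 to 0.03. The libraries of CMP, BAN and CQC were all above those of the other 5 isolates, while AMH overlapped with BED and with BTT. In these bulk cultures, fewer cells in a given state and less RNA per cell cannot be told apart.

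**Figure D1:**
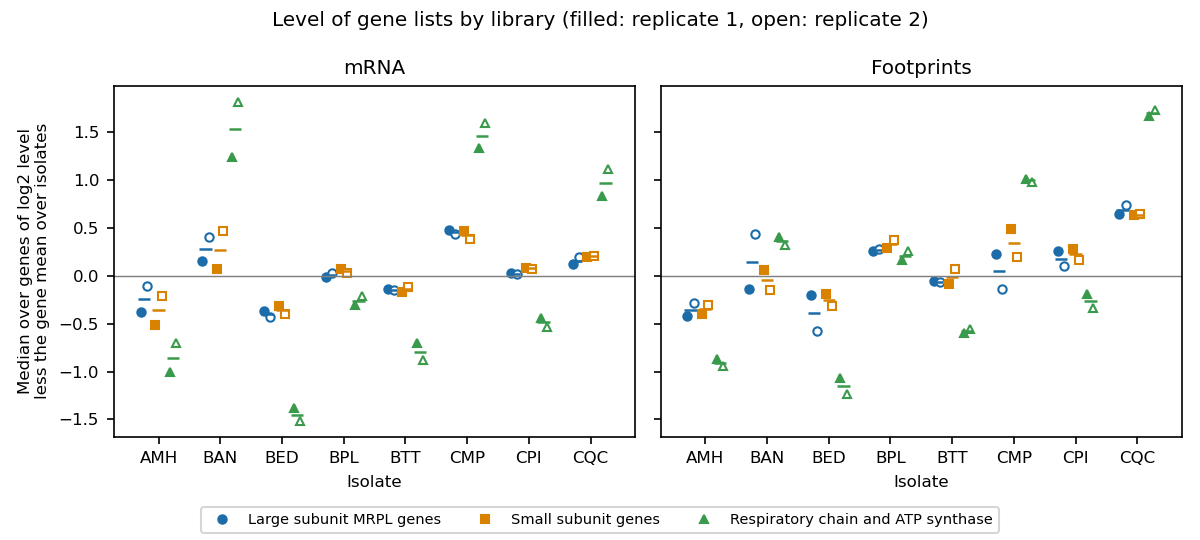
Median over genes of the log2 level relative to each gene's mean over the 8 isolates (y axis), for each library of each isolate (x axis), in mRNA (left) and footprints (right). Filled symbols are replicate 1, open symbols replicate 2 and lines their mean; squares are small subunit genes and triangles respiratory genes. The large subunit genes (circles) are highest in CMP in mRNA (0.48 and 0.43) and in CQC in footprints (0.64 and 0.74).

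The footprints ordered the isolates differently at the top. CQC was highest, with a median of 0.64 and 0.74 in its footprint libraries. BPL followed by its mean, with 0.26 and 0.28, but was not apart from CPI, with 0.26 and 0.10, or from BAN. The shallow BAN libraries had -0.14 and 0.43, on either side of both BPL libraries. BED was lowest with -0.21 and -0.58, beside AMH with -0.42 and -0.28, and these 2 isolates overlapped. In CMP the footprint medians were 0.23 and -0.14, and the median difference of 0.21 from the other 7 isolates lay between -0.13 and 0.25 with 1 library left out, so CMP was not at the top at the depth of its footprint libraries. Across the 8 isolates, the correlation of the median mRNA level with the median footprint level was 0.62 (Pearson) and 0.60 (Spearman), and 0.72 without BED and CMP. Both assays were scaled within the same 8 isolates, so this is a description with n = 8. With the RNA-seq libraries thinned to the depth of the footprint libraries, the mRNA calls in each isolate's main direction were fewer. They were 7 in CMP, 11 in BED, 9 in AMH, 4 in BAN, 5 in CQC and 3 each in BPL and CPI. At full depth these isolates had 27, 25, 17, 17, 12, 5 and 5. BTT, with the deepest footprint libraries and so the least thinned, had 10 against 11. The thinned medians stayed near those at full depth in CMP (0.55, against 0.53), BED (-0.41, against -0.47) and AMH (-0.25, against -0.27), while CQC had 0.26, against 0.17, and BAN 0.07, against 0.26.

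Over all 8 isolates, 25 of the 34 genes were called in footprints, where 73.8% of 5347 genes were. The 9 not called were MRPL3, MRPL11, MRPL19, MRPL20, MRPL32, MRPL36, MRPL37, MRPL44 and MRPL50. The calls by isolate in both assays stand in the heat map of the 34 genes.

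**Figure D2:**
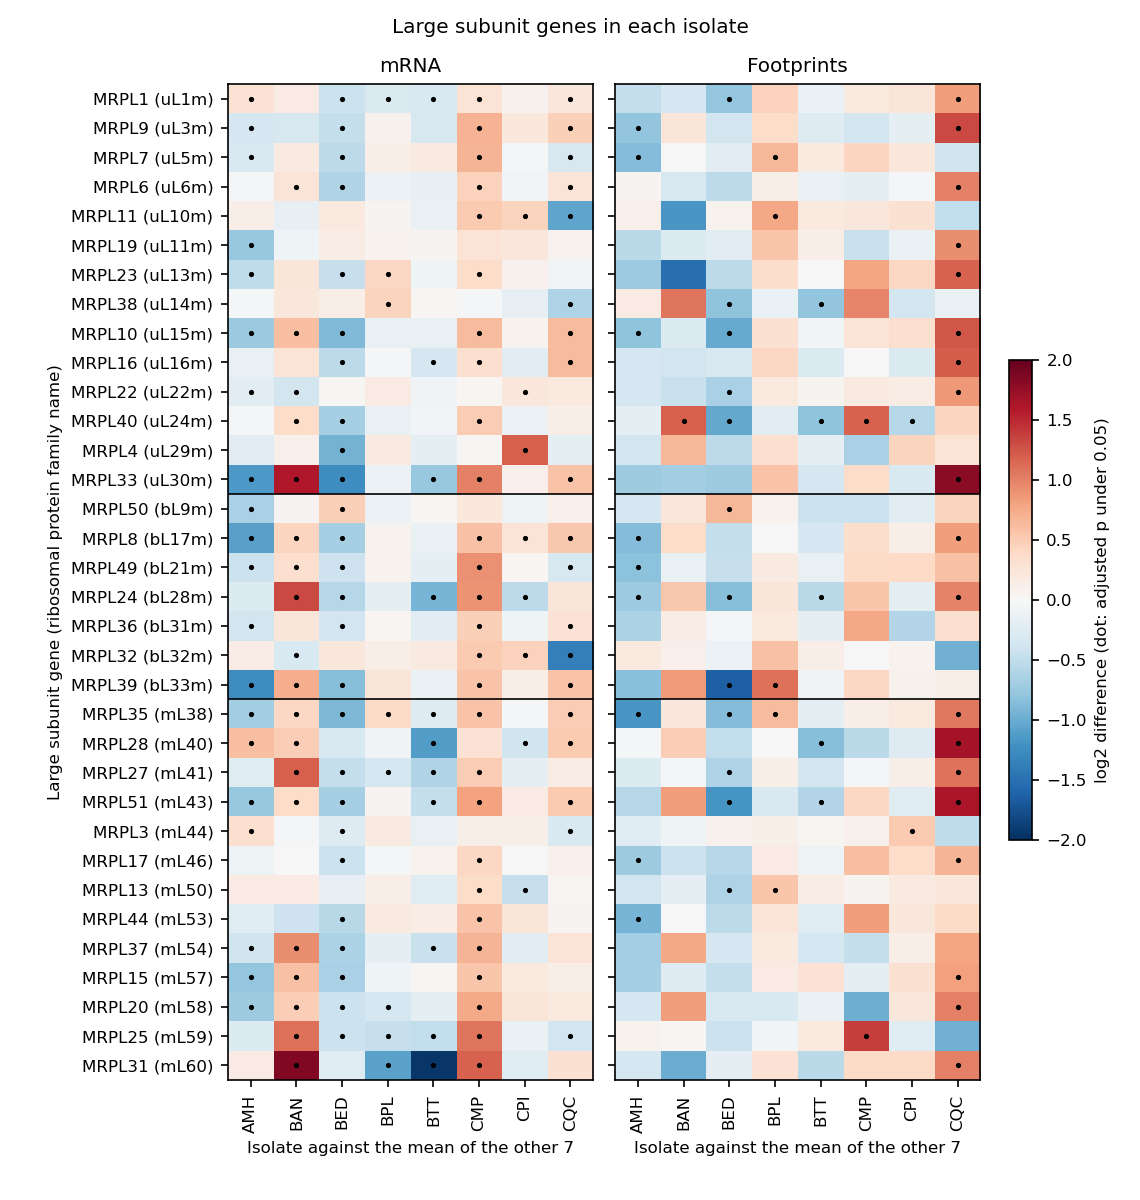
Log2 difference of each isolate from the mean of the other 7 (colour) for the 34 genes (rows, by family) in mRNA (left) and footprints (right); dots mark an adjusted p under 0.05. CMP is higher in mRNA for 27 genes, BED lower for 25, and CQC higher in footprints for 19.

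CMP had 27 of the 34 genes higher in mRNA and none lower, with a median log2 difference of 0.53 (all genes 0.00; 27.5% of all genes were higher and 26.2% lower). The largest of those in which both CMP libraries lay above all 14 others were MRPL49 (YJL096W, bL21m), MRPL51 (YPR100W, mL43) and MRPL20 (YKR085C, mL58). MRPL49 had 124 and 105 CPM in CMP, against 41.6 to 86.2 in the other isolates (median 60.1), a log2 difference of 0.91 ± 0.12 (SE, adjusted p = 1.65e-05). MRPL51 had 166 and 182 CPM in CMP and 59.9 to 157 elsewhere (median 109), a difference of 0.80 ± 0.11. MRPL20 had 114 and 107 CPM in CMP and 36.4 to 95.6 elsewhere (median 62.1), a difference of 0.76 ± 0.11. In all 3 genes every CMP library was above every library of the other isolates. With the trend of the differences on coding length removed, 16 genes were higher and none lower.

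BED had 25 genes lower and 1 higher, with a median of -0.47 (all genes -0.02; 29.4% lower and 32.8% higher). In 10 genes both BED libraries lay outside the range of the other 14. MRPL10 (YNL284C, uL15m), a core protein that binds the ribosomal RNA, had 93.1 and 91.6 CPM in BED, against 98.9 to 257 elsewhere (median 163), a difference of -0.88 ± 0.11 (adjusted p = 8.73e-06). MRPL35 (YDR322W, mL38) had 39.0 and 35.4 CPM in BED and 39.6 to 93.3 elsewhere (median 76.2), a difference of -0.89 ± 0.11. MRPL50 (YNR022C, bL9m) was the exception, with 107.1 and 110.1 CPM in BED and 42.1 to 106.8 elsewhere (median 79.9), a difference of 0.47 ± 0.15 (adjusted p = 0.014). It was higher in footprints too, with 54.7 and 42.6 CPM in BED, against 8.82 to 54.7 elsewhere (0.66 ± 0.26, adjusted p = 0.045). This footprint call was lost with DESeq2 and with the length trend removed, and MRPL50 footprints did not pass the test over all isolates. The count of lower genes was 14, with 4 higher, once the length trend was removed, and 14 without BED replicate 2.

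AMH had 17 genes lower and 3 higher in mRNA, with a median of -0.27 (all genes 0.02; 30.3% lower and 33.4% higher). MRPL8 (YJL063C, bL17m), at the rim of the exit tunnel, had 41.2 and 47.5 CPM in AMH, against 55.8 to 132 elsewhere (median 99.8), and fell by 1.08 on the log2 scale (SE 0.11, adjusted p = 1.05e-06). MRPL39 (YML009C, bL33m) had 18.3 and 28.6 CPM in AMH and 29.6 to 98.7 elsewhere (median 59.2), a difference of -1.25 ± 0.19. MRPL19 (YNL185C, uL11m), at the base of the factor-binding stalk, had 13.0 and 14.2 CPM in AMH and 17.1 to 29.9 elsewhere (median 23.3), a difference of -0.76 ± 0.18 (adjusted p = 0.089 with thinned RNA-seq libraries). The 3 genes higher in AMH were MRPL1, MRPL3 and MRPL28. The AMH libraries differed from each other more than those of most isolates, and the count of lower genes was 9 without AMH replicate 1. Upper-quartile scaling gave 13 lower and 6 higher, and removal of the length trend 21 lower and 2 higher.

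BAN had 17 genes higher and 2 lower in mRNA, with a median of 0.26 (all genes -0.01; 34% higher and 33.1% lower). MRPL31 (YKL138C, mL60) had 85.8 and 138 CPM in BAN, against 10.6 to 76.8 elsewhere (median 31.6), the largest isolate difference above 0 in the mRNA of the 34 genes, at 1.86 ± 0.13 (adjusted p = 2.94e-08). MRPL24 (YMR193W, bL28m) had 160 and 239 CPM in BAN and 49.4 to 153 elsewhere (median 75.5), a difference of 1.33 ± 0.11. MRPL27 (YBR282W, mL41) had 76.3 and 87.0 CPM in BAN and 24.1 to 57.8 elsewhere (median 34.9), a difference of 1.19 ± 0.13. All 3 were also higher in CMP. With thinned RNA-seq libraries MRPL24 and MRPL27 lost the call in BAN, with differences of 0.85 and 1.29 (adjusted p = 0.199 and 0.159). The BAN pattern moved with coding length: the mRNA difference in BAN had a Spearman correlation with length of -0.33 over the 34 genes and of -0.33 over all 6269. The 34 genes are short, with a median deposited length of 195.5 codons against 372 for all genes tested. With the length trend removed, 9 genes were higher and 8 lower and the median was -0.01, and without BAN replicate 2 the count of higher genes was 10. Upper-quartile scaling gave 23 higher and none lower.

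CQC split the genes: 12 were higher in mRNA and 7 lower, with a median of 0.17 (all genes 0.02; 35.6% higher and 37.1% lower). MRPL16 (YBL038W, uL16m), a core protein near the catalytic centre, had 158.5 and 181.7 CPM in CQC, against 83.9 to 157.7 elsewhere (median 107), a difference of 0.63 ± 0.11 (adjusted p = 8.83e-05). MRPL32 (YCR003W, bL32m), whose import form is cut by the m-AAA protease before it joins the ribosome, had 20.7 and 22.2 CPM in CQC and 35.3 to 73.3 elsewhere (median 55.1). It fell by 1.36 on the log2 scale (SE 0.13, adjusted p = 2.46e-07). MRPL11 (YDL202W, uL10m), the base protein of the stalk that recruits translation factors, had 35.6 and 33.9 CPM in CQC and 58.0 to 92.8 elsewhere (median 70.0), a difference of -1.06 ± 0.10. MRPL38 (YKL170W, uL14m) was the third gene with both CQC libraries below all others, at 20.7 and 24.1 CPM against 24.6 to 42.8 (-0.62 ± 0.16). The other 4 lower genes were MRPL3, MRPL7, MRPL25 and MRPL49. The count of higher genes was 5 without CQC replicate 2 and 19 without the BAN isolate, and DESeq2 gave 17 higher and 6 lower.

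BTT had 11 genes lower and none higher, with a median of -0.17 (all genes 0.07; 19.8% lower and 32.8% higher). MRPL31 had 10.6 and 11.5 CPM in BTT, against 17.9 to 138 elsewhere (median 37.7), a difference of -1.94 ± 0.18 (adjusted p = 5.96e-07). MRPL28 (YDR462W, mL40) had 14.4 and 12.9 CPM in BTT and 17.7 to 45.9 elsewhere (median 31.0), a difference of -1.12 ± 0.17. MRPL24 had 49.4 and 51.8 CPM in BTT and 61.5 to 239 elsewhere (median 79.5), a difference of -0.93 ± 0.13. MRPL31 and MRPL24 were thus at opposite ends in BTT and BAN, and with the length trend removed they still differed in both, at -1.65 and -0.81 in BTT and 1.18 and 1.14 in BAN. The count over the 34 genes was 3 lower and 3 higher with the length trend removed, 17 lower with DESeq2, 20 lower with upper-quartile scaling, and 5 or 4 lower when either BTT library was left out.

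BPL and CPI had the fewest mRNA calls. BPL had 3 higher and 5 lower (median 0.05, all genes 0.04; 27.6% higher and 19% lower), and CPI had 5 higher and 3 lower (median 0.05, all genes 0.02; 31.4% higher and 22.4% lower). MRPL38 had 42.0 and 42.8 CPM in BPL and 20.7 to 39.0 elsewhere (median 31.7), a difference of 0.44 ± 0.14 (adjusted p = 0.015), which lost the call without either BPL library (adjusted p = 0.087 and 0.12). MRPL13 (YKR006C, mL50) had 54.5 and 53.4 CPM in CPI, against 56.8 to 95.5 elsewhere (median 77.7), a difference of -0.46 ± 0.10 (adjusted p = 0.0012). CPI also had the highest mRNA level of MRPL4 (YLR439W, uL29m), a tunnel-exit protein, at 15.6 and 14.8 CPM against 3.91 to 9.99 elsewhere (1.2 ± 0.21, adjusted p = 0.000295). MRPL4 was lowest in BED, at 3.91 and 4.33 CPM against 5.05 to 15.6, a difference of -0.94 ± 0.27 (adjusted p = 0.0073). That call was lost without either BED library (adjusted p = 0.079 and 0.055). With thinned RNA-seq libraries MRPL13 and MRPL4 in CPI and MRPL4 in BED also lost it, with differences of -0.31, 0.83 and -1.21 (adjusted p = 0.166, 0.069 and 0.081). With the length trend removed, CPI had 12 higher and 2 lower and BPL 3 higher and 2 lower, and upper-quartile scaling gave 3 higher and 5 lower in CPI. On leaving out 1 library, BPL had 1 lower without either BPL library and 3 without CPI replicate 1, and CPI had 3 higher without either CPI library, either BED library or BPL replicate 1.

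**Figure D3:**
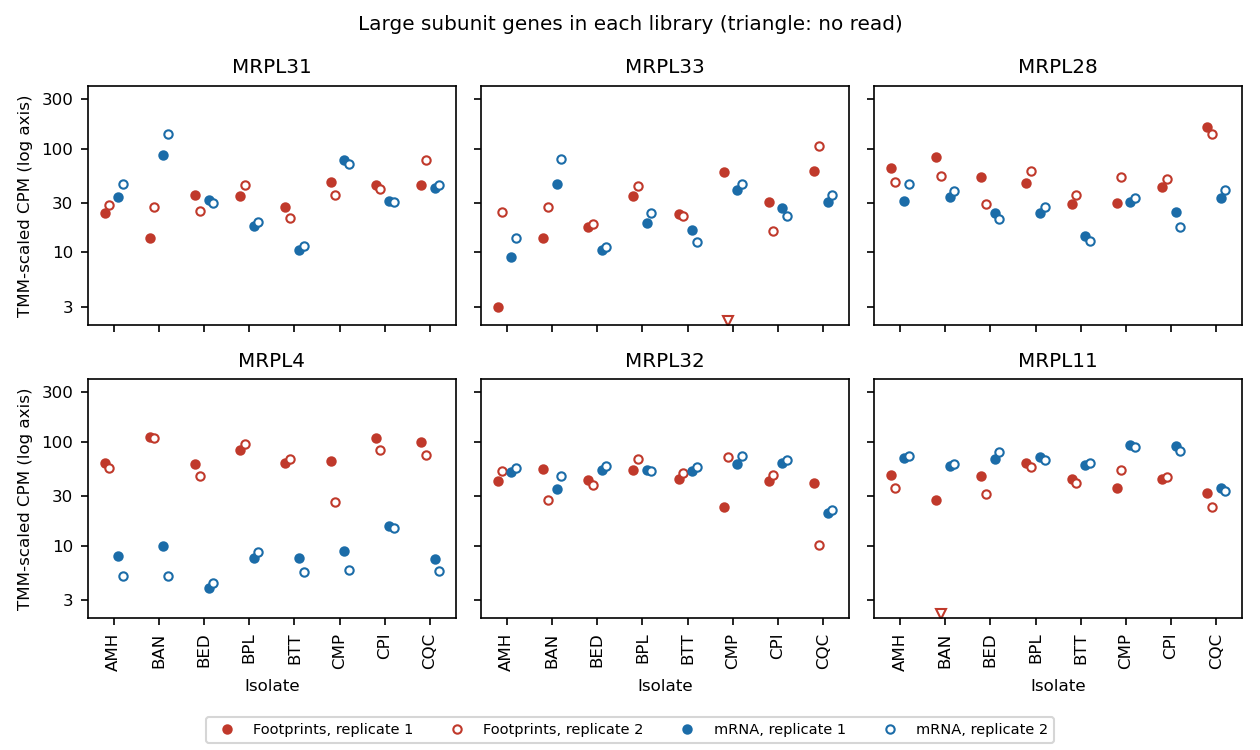
TMM-scaled CPM (y axis, log scale) of 6 large subunit genes in every library, by isolate (x axis), footprints left (red) and mRNA right (blue), filled for replicate 1 and open for replicate 2, with a triangle where a library had no read. MRPL31 footprints lie between 13.8 and 77.8 CPM, while its mRNA reaches 138 in BAN and is as low as 10.6 in BTT; MRPL32 and MRPL11 mRNA are lowest in CQC.

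Among the 34 genes, the range of isolate means differed widely. MRPL31 varied most in mRNA, with 112 ± 36.9 CPM in BAN (SD, n = 2) and 11.04 ± 0.69 in BTT, a 10.1-fold range. MRPL33 (YMR286W, uL30m) followed with 62.3 ± 23.99 CPM in BAN and 10.9 ± 0.43 in BED, then MRPL24 and MRPL4 with ranges of 1.98 and 1.88 on the log2 scale. MRPL22 (YNL177C, uL22m), which lines the exit tunnel, and MRPL3 (YMR024W, mL44) varied least, by 0.53 and 0.55. MRPL22 had 70.7 ± 1.0 CPM in BAN and 102 ± 2.2 in CPI. In footprints, the widest ranges were those of MRPL33, MRPL51 and MRPL39 (2.59, 2.43 and 2.39 on the log2 scale) and the narrowest those of MRPL3 and MRPL13 (0.90 and 1.02). MRPL33 and MRPL39 are the shortest of the 34, with 77 and 61 codons in the deposited lengths, and had a mean of 25.4 and 26.5 reads per footprint library.

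Most of the genes followed each other across isolates. The correlation of a gene's isolate means with the median of the other members, over 8 isolates, had a median of 0.77 in mRNA and 0.74 in footprints, and was over 0.7 for 21 and 19 of the 34 genes. MRPL36 (YBR122C, bL31m), MRPL51, MRPL35 and MRPL10 followed the rest most closely in mRNA (0.95, 0.94, 0.92 and 0.92). MRPL32, MRPL38 and MRPL11, the genes lowest in CQC, did not (-0.16, -0.16 and -0.05). In footprints MRPL32, MRPL25 and MRPL3 were also apart from the rest, at -0.56, -0.27 and -0.22. These values are a description, since all genes share the same libraries.

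In footprints, CQC had 19 of the 34 genes higher and none lower, with a median log2 difference of 0.83 (all genes 0.02; 26.2% higher and 23.3% lower). MRPL28 had 160 and 139 CPM in CQC, against 29.1 to 82.7 elsewhere (median 49.3), a difference of 1.66 ± 0.24 (adjusted p = 3.33e-07). MRPL51 had 128 and 112 CPM in CQC and 16.4 to 82.0 elsewhere (median 36.5), a difference of 1.63 ± 0.26. MRPL33 had 60.1 and 105 CPM in CQC and at most 59.3 elsewhere (median 22.9), a difference of 1.8 ± 0.43. In each of these genes both CQC libraries lay above all 14 others. MRPL32 and MRPL11, lower in CQC mRNA, had footprint differences of -0.96 ± 0.42 and -0.49 ± 0.40 that did not pass the test (adjusted p = 0.056 and 0.32). Upper-quartile scaling gave 16 higher and 3 lower, and 11 were higher without CQC replicate 2. Without the BAN isolate 21 were higher and 2 lower.

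The footprints of AMH and BED were lower for 9 and 11 genes, with medians of -0.51 in both (all genes 0.07 and 0.10). Of all genes, 14.1% were lower and 19.9% higher in AMH, and 13.6% lower and 20.9% higher in BED. MRPL39 had 10.3 and 9.84 CPM in BED, against 14.9 to 56.2 elsewhere (median 29.3), a difference of -1.64 ± 0.36 (adjusted p = 0.000437). MRPL35 had 32.7 and 47.9 CPM in AMH and 27.3 to 173 elsewhere (median 98.9), a difference of -1.17 ± 0.24. MRPL50 was the only gene of the 34 higher in BED footprints, a call lost with DESeq2 and with the length trend removed, and none was higher in AMH. The AMH count was 18 with the length trend removed, 5 with upper-quartile scaling, 3 without AMH replicate 2, 4 without CMP replicate 1 and 5 without either BAN library, and the BED count was 4 without BED replicate 2.

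Few genes were called in the footprints of the other isolates. BPL had 5 higher and none lower (16.2% higher, 8.62% lower over all genes): MRPL7, MRPL11, MRPL13, MRPL35 and MRPL39, the last with 49.6 and 56.2 CPM in BPL and 9.84 to 54.7 elsewhere (1.10 ± 0.25). Without BPL replicate 2 none was higher, and without BPL replicate 1, either BED library or CPI replicate 2 the count was 3, as it was with DESeq2, with upper-quartile scaling and with the length trend removed. BTT had 5 lower and none higher (12.8% lower, 18.7% higher): MRPL24, MRPL28, MRPL38, MRPL40 and MRPL51; without BTT replicate 2 the count was 2. CPI had MRPL3 higher and MRPL40 lower (18% higher, 12% lower), with 2 or 3 higher on leaving out any of 11 other libraries and none without CPI replicate 1. Without the BAN isolate, CPI had 2 genes higher and 0 lower, so the MRPL40 call was lost. CMP had MRPL25 (YGR076C, mL59) and MRPL40 higher (11.4% higher, 7.44% lower), and BAN had MRPL40 higher (3.1% higher, 1.16% lower). MRPL40 (YPL173W, uL24m), at the exit of the tunnel and in contact with the membrane insertase Oxa1, had 193 and 328 CPM in the footprints of BAN and 190 and 300 in CMP, against 53.2 to 160 in the other 6 isolates. In BAN this rests on 14 and 12 reads, and the call was lost without either BAN footprint library. Without CMP footprint replicate 1, CMP had 1 higher.

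**Figure D4:**
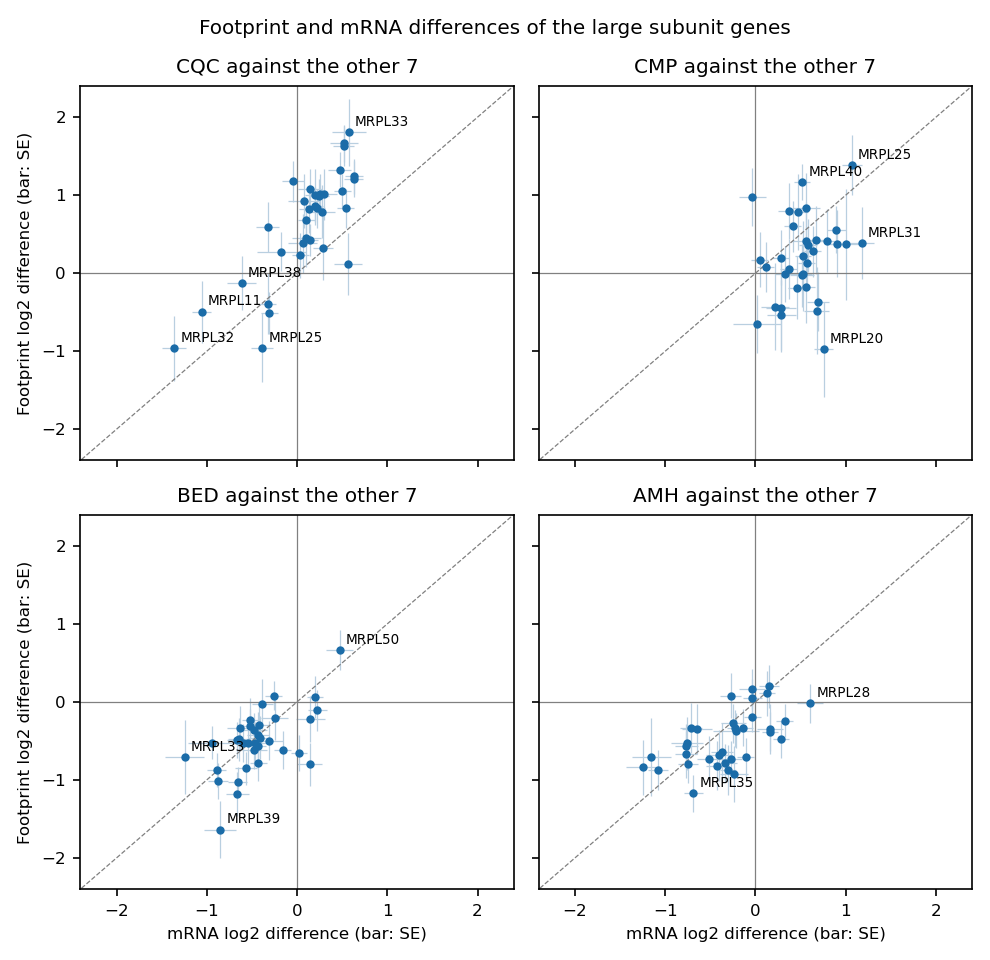
Footprint log2 difference (y axis) against mRNA log2 difference (x axis) of the 34 genes in 4 isolates, each against the mean of the other 7; bars are standard errors and the dashed line marks equal differences. In CQC most genes lie above the line, with a median of 0.83 in footprints and 0.17 in mRNA, while in CMP most lie below it, with 0.21 (-0.13 to 0.25 with 1 library left out) and 0.53.

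Translational efficiency, the footprint level relative to the mRNA level of the same gene, was tested as the interaction of isolate and assay over all 32 libraries. Over the 8 isolates, 9 of the 34 genes were called, 26.5% against 24.9% of the 6177 genes tested, a share near that of all genes. The 9 were MRPL1, MRPL9, MRPL13, MRPL23, MRPL24, MRPL31, MRPL38, MRPL40 and MRPL51. Leaving out RNA-seq BED replicate 1, either BTT replicate or CQC replicate 1, or footprint BAN replicate 1 or BED replicate 2, gave 4 or 5, the thinned RNA-seq libraries 5, and DESeq2 15. CQC had the most calls, with 4 genes higher and none lower and a median of 0.53 against 0.11 for all genes (5.29% higher and 2.25% lower over all genes). MRPL23 (YOR150W, uL13m) had 112 and 77.8 footprint CPM in CQC, above all 14 other libraries (13.8 to 77.1), and 72.9 and 84.9 mRNA CPM, within their range of 49.9 to 109. Its efficiency was higher by 1.18 ± 0.27 (adjusted p = 0.0063). MRPL28, MRPL51 and MRPL27 were higher by 1.10 ± 0.29, 1.07 ± 0.27 and 0.89 ± 0.28 (adjusted p = 0.017, 0.012 and 0.047); MRPL28 had an adjusted p of 0.249 with thinned RNA-seq libraries. DESeq2 called 12 genes higher in CQC. With edgeR, none was called without CQC footprint replicate 1, 1 without footprint replicate 2 or RNA-seq replicate 1, and 7 without CMP footprint replicate 1.

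MRPL31 had the lowest adjusted p for efficiency over the 8 isolates (2.08e-04). Its efficiency differences ran against its mRNA, which enters efficiency by definition, so this is not a separate result. In BAN, with the most mRNA, it had 13.8 and 27.3 footprint CPM, against 21.2 to 77.8 elsewhere (median 35.4), and its efficiency was lower by 2.87 ± 0.74 (adjusted p = 0.0090). In BTT and BPL, with the least mRNA, it had 27.6 and 21.2 and 34.7 and 44.3 footprint CPM. Its efficiency was higher by 1.44 ± 0.27 in BTT and 1.38 ± 0.31 in BPL (adjusted p = 0.000918 and 0.0080). Both were set against means that include the low BAN value. The BAN value rests on 1 read in each BAN footprint library; its footprint level there was 0.484 times the mean of the other 14 libraries (95% exact Poisson interval 0.0586 to 1.75, counting error of the 2 reads only). It was -1.87 with an adjusted p of 0.23 when the length trend was removed, and -2.25 with 0.45 without BAN footprint replicate 1.

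MRPL1 (YDR116C, uL1m), the protein of the stalk where spent tRNA leaves, was lower in efficiency in AMH and higher in BPL. In AMH it had 50.5 and 38.3 footprint CPM and 86.5 and 103 mRNA CPM, a difference of -0.77 ± 0.22 (adjusted p = 0.023). In BPL it had 64.4 and 83.2 footprint CPM and 64.8 and 70.0 mRNA CPM, a difference of 0.77 ± 0.19 (adjusted p = 0.016). MRPL40 was lower in efficiency in BTT (-0.70 ± 0.18, adjusted p = 0.017), with 69.5 and 73.8 footprint CPM and 90.9 and 87.8 mRNA CPM.

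These were the edgeR calls in single isolates: AMH 1 lower, lost without RNA-seq or footprint replicate 2 of AMH or footprint replicate 1 of BTT (2.85% higher and 4.91% lower over all genes), BAN 1 lower, which was 2 without its RNA-seq replicate 1 and 0 without its footprint replicate 1 (5.7% and 5.52%), BPL 2 higher (1.73% and 2.62%) and BTT 1 higher and 1 lower (1.12% and 3.69%). BPL had none without its footprint replicate 2 or with the length trend removed, 1 without its RNA-seq replicate 1 and 4 without RNA-seq BAN replicate 1; BTT had 3 higher with upper-quartile scaling and 2 without RNA-seq BAN replicate 1 or footprint replicate 1 of BED or CMP. In BED, CMP and CPI edgeR called none of the 34, with 2, 5 and 6 at an unadjusted p under 0.05, and DESeq2 called 2, 1 and 1 (over all genes, 1.94% higher and 2.1% lower in BED, 3.37% and 1.8% in CMP, and 0.988% and 2.75% in CPI). The median efficiency difference in CMP was -0.37 against -0.02 for all genes, and 26 of 34 genes had a value below 0. In BED edgeR called 2 lower with the length trend removed and 1 lower without BAN. The CMP median lay between -0.68 and -0.14 as single libraries were left out. The slope of footprint on mRNA deviations, taken across different replicates, was 0.55 for the 34 genes and 0.56 for the 31 small subunit genes. It was 0.72 for 41 nuclear respiratory chain and ATP synthase genes and 0.76 over 4029 genes. Those 4029 had a mean of at least 20 reads over the footprint libraries and of at least 100 over the RNA-seq libraries. All isolates counted equally in these slopes, BAN and CMP with their few footprint reads among them, and slopes without them were not computed. The spread of mRNA differences behind these slopes was narrower for the 34 genes (SD 0.45 on the log2 scale) than for those 4029 (0.97).

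Averaged over the isolates, the 34 genes differed among themselves in footprints relative to mRNA. The test compares each gene's share of footprints with its share of mRNA after TMM scaling, where the median of all genes was -0.74, so values are read against that. The 34 genes had a median of -0.49, with 23 above and 11 below the median of all genes. The small subunit genes had -0.81 (14 above, 17 below). The 11 large subunit genes without an MRPL symbol had -0.04 (10 above, 1 below). The 41 nuclear respiratory chain and ATP synthase genes had 0.05 (37 above, 4 below), so a value above that median was not particular to the 34. By the test against 0, 7 were higher and 21 lower, where 17.1% of all genes were higher and 57.9% lower. MRPL4 stood apart with 75.8 footprint CPM against 7.76 mRNA CPM on average (3.31 ± 0.18, adjusted p = 2.80e-16). Reads of all isolates were aligned to sacCer3, and the effect of this on the low MRPL4 mRNA count, on which this difference and its mRNA range rest, was not tested. MRPL28 and MRPL38 followed with 1.02 ± 0.14 and 0.82 ± 0.13. MRPL50, MRPL36 and MRPL51 were lowest, at -1.35 ± 0.13, -1.29 ± 0.12 and -1.28 ± 0.10. MRPL36, known from genetic work on the translation of mitochondrial COX2 mRNA, had 48.2 footprint CPM and 124 mRNA CPM on average.

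Averaged over isolates and divided by coding length, footprint levels were closer to each other than mRNA levels. The footprint level per length was between 16.3 CPM per 100 codons for MRPL11 and 49.95 for MRPL39, a 3.06-fold range with an SD of 0.44 on the log2 scale. The mRNA level per length was between 2.50 for MRPL4 and 89.0 for MRPL39, with an SD of 0.89. Without MRPL4 the mRNA range was 6.01-fold with an SD of 0.60. The mRNA SDs that follow for BTT and for single libraries include MRPL4. With that gene taken out, the mRNA SD falls below the footprint SD in AMH replicate 1 and in the CQC and CMP libraries, so the order there rests on MRPL4. For the other libraries this was not tested. In BTT, the isolate with the deepest footprint libraries, the SD was 0.27 in footprints and 0.96 in mRNA, and the footprint range was 2.46-fold. In single libraries the SD was lower in the footprints of AMH, BED, BPL, BTT and CPI (0.28 to 0.73) than in their mRNA (0.76 to 0.999), but near that of mRNA in CQC (0.95 and 0.97 in footprints, 1.02 and 1.10 in mRNA), in CMP (0.93 and 0.91, against 0.95 and 1.06) and in BAN replicate 1 (0.99, against 0.96), among them the shallowest footprint libraries. The small subunit genes had an SD of 0.66 in footprints and 0.68 in mRNA, or 0.47 and 0.60 without RSM22, whose footprint level was the lowest, and the 11 other large subunit genes had 0.52 and 0.87. The difference between the lists was not tested.

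**Figure D5:**
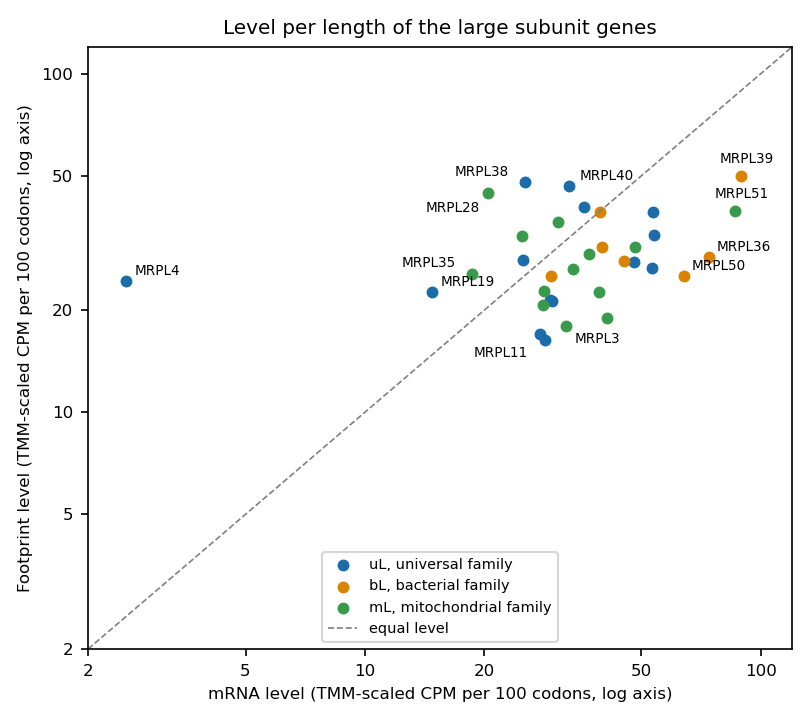
Footprint level (y axis) against mRNA level (x axis) of the 34 genes, both in TMM-scaled CPM per 100 codons on log axes, averaged over 8 isolates and coloured by family; the dashed line marks equal levels. Footprint levels lie between 16.3 and 49.95 while mRNA levels run from 2.50 for MRPL4 to 89.0 for MRPL39.

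The highest footprint levels per length were those of MRPL39, MRPL38 and MRPL40 (49.95, 47.9 and 46.7 CPM per 100 codons) and the lowest those of MRPL3, MRPL7 and MRPL11 (18.0, 17.1 and 16.3). In mRNA the highest were MRPL39, MRPL51 and MRPL36 (89.0, 86.4 and 74.0) and the lowest MRPL35, MRPL19 and MRPL4 (18.7, 14.8 and 2.50). MRPL39 thus led both lists by the deposited length. It is the shortest of the 34, with 61 codons in that length against 71 in the gene with its stop. The 10 codons left out weigh most on the shortest gene, and its first place in both lists depends on the length used. Before division by length its 30.5 footprint CPM were among the lowest. The footprint order per length had a Spearman correlation of 0.05 with the order by CPM, and the mRNA order one of 0.60, so the order depends on the division. The Pearson correlation of footprint and mRNA log2 levels per length over the 34 genes was 0.25, and Spearman's was 0.31. Reads of MRPL19 and of the overlapping reading frame YNL184C, and of MRPL51 and the overlapping YPR099C, may have been assigned to either, since the counting is not described in the sources used here; the overlapping frames had 8.995 and 1.795 mRNA CPM. MRPL44 (YMR225C, mL53) has an intron.

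The rest of the mitochondrial translation machinery showed both shared and different patterns. Of 31 small subunit genes, 23 were higher and none lower in CMP mRNA (median 0.49), and 21 were lower and 2 higher in BED (median -0.42). In CQC footprints 14 were higher and none lower (median 0.68). The 11 large subunit genes without an MRPL symbol had 7 higher and none lower in CMP mRNA and 7 lower and 1 higher in BED; those with the widest mRNA range were YML6 (uL4m), MRP7 (bL27m) and RTC6 (bL36m), at 2.03, 1.56 and 1.52 on the log2 scale. Across the 8 isolates the median mRNA level of the 34 genes had a Pearson correlation of 0.98 with that of the small subunit genes and of 0.92 with that of the other large subunit genes. The 13 mitochondrial aminoacyl-tRNA synthetases, which charge the tRNAs, had another order, with a correlation of -0.03: 10 were higher and none lower in BPL, and 10 were lower and 2 higher in CQC. All these lists share libraries with the 34 genes, so the correlations carry no test.

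The 34 genes had median mRNA differences of 0.53 in CMP, 0.26 in BAN and -0.47 in BED, where 41 nuclear respiratory chain and ATP synthase genes had 1.68, 1.73 and -1.69. The correlation of the medians of these lists across isolates was 0.95 in mRNA and 0.87 in footprints, the footprint value being 0.62 without BED and CQC. The 138 cytosolic ribosomal protein genes, a list made after the others, had a correlation of -0.95 in footprints (-0.85 without BED and CQC) and -0.47 in mRNA, with median footprint levels of -1.32 and -1.58 in CQC. The share of mRNA reads on the 28 mitochondrial open reading frames was 20.2% ± 1.5 in CQC (SD, n = 2), 11.8% ± 0.04 in BAN and 11.7% ± 0.35 in CMP, against 1.67% ± 0.08 in BED and 1.34% ± 0.24 in AMH. Its log2 value had a correlation of 0.86 with the median mRNA level of the 34 genes and of 0.91 with their median footprint level.

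Among the regulators, HAP4, the activating subunit of the Hap complex, had 1647 and 1582 mRNA CPM in CQC, 1099 and 1021 in CMP and 997 and 1611 in BAN, against 85.6 and 78.1 in BED and 66.3 and 120.9 in AMH. PUF3 had 282 and 257 mRNA CPM in CQC, 296 and 262 in CMP and 209 and 286 in BAN, against 84.9 and 88.5 in BED and 55.8 and 57.6 in AMH. Both were higher in every library of CQC, CMP and BAN than in those of BED and AMH; of the 34 genes, most were called higher in mRNA in CMP, while CQC had 12 higher and 7 lower. Their part in the levels of the 34 genes was not tested.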

How the data were processed

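The authors deposited, for each of the 32 libraries, raw counts by open reading frame as whole numbers. The submitters' processing notes name CASAVA 1.8, STAR 2.7.0a and the sacCer3 build. Footprints came from RNase I digestion with depletion of ribosomal RNA, and RNA-seq libraries from a stranded kit, per the labels' protocols. How reads were counted, by which tool and on which strand, is not given in the sources used here. A second deposited column equals the coding codons, stop included, less 10 for 95.2% of frames that have a RefSeq record, and served as coding length. Symbols, families and overlaps came from RefSeq for R64.

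The tests used edgeR 4.0.16 and limma 3.58.1 under R 4.3.3, with filterByExpr with a minimum count of 10, TMM within each assay, quasi-likelihood F-tests and Benjamini-Hochberg adjustment over all genes at 0.05. This tested 6269 genes in mRNA, 5347 in footprints and 6177 for efficiency, which is the interaction of isolate and assay in 1 model of 32 libraries. CPM are counts per 1000000 reads, scaled by TMM; intervals cover counting error only. DESeq2 1.42.0, upper-quartile scaling, no filter, a replicate block, removal of the trend on coding length, thinned RNA-seq libraries, and fits without BAN, without mitochondrial reading frames and without each library were the alternatives. The fits were tested on simulated counts. Replicate pairs differed by more than sampling noise (chi-square per degree of freedom 2.04 to 30.5), so no pair was treated as repeats of 1 library; this does not show separate cultures.

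The 34 genes, the 131 genes of the other lists and the tests were chosen with earlier results of these data known. Genes named with values are those with the widest and narrowest ranges, up to 3 called mRNA and 2 called efficiency differences per isolate with both libraries beyond the 14 others, the extremes of level per length and of footprints against mRNA, MRPL32 and MRPL36, and, of the other lists, PUF3, HAP4 and genes with the widest range. The remaining named genes were chosen after their values were seen.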

Additional observations from a re-analysis of the deposited data

Results flagged for a closer look

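For 9 of the 34 genes the ratio of footprints to mRNA differed between the 8 isolates in the interaction test over all libraries (edgeR quasi-likelihood F-test). The adjusted p-values were 2.08e-04 for MRPL31, 0.0032 for MRPL1, 0.0102 for MRPL40, 0.0169 for MRPL13, 0.0285 for MRPL24, 0.0374 for MRPL23, 0.0383 for MRPL38, 0.0399 for MRPL51 and 0.0451 for MRPL9. MRPL31 had a difference of -2.87 in BAN, against 1.44 in BTT and 1.38 in BPL. MRPL38 and MRPL40 shared directions in CMP and BTT: MRPL38 had values of 0.99 and -0.78 and MRPL40 of 0.63 and -0.70, of which the MRPL40 value in BTT passed the test. MRPL13, MRPL24, MRPL38 and MRPL9 passed no test in a single isolate.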

How the results depend on the processing

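The counts here are of the 34 genes called in each isolate's main direction, and the value as reported stands in brackets. With the trend on coding length removed, mRNA gave 9 in BAN (17), 14 in BED (25), 2 in BPL (5), 3 in BTT (11), 16 in CMP (27) and 12 in CPI (5), footprints 18 in AMH (9) and 3 in BPL (5), and efficiency 2 in AMH (1), 0 in BAN (1) and 0 in BPL (2). Thinned RNA-seq libraries, which hold fewer reads, gave in mRNA 9 in AMH (17), 4 in BAN, 11 in BED, 3 in BPL, 7 in CMP, 3 in CPI and 5 in CQC (12), and in efficiency 5 over all isolates (9), 0 in AMH and 1 in BPL. DESeq2 gave 17 in BTT mRNA, 3 in BPL footprints, and for efficiency 15 over all isolates, 2 in BTT (1), 1 in CMP (0), 1 in CPI (0) and 12 in CQC (4). Upper-quartile scaling gave 20 in BTT and 3 in CPI in mRNA, 5 in AMH and 3 in BPL in footprints, and 3 in BTT and 1 in CPI for efficiency. Without BAN, CQC had 19 in mRNA, CPI 2 in footprints (1), and AMH 2, CMP 3 and CPI 1 for efficiency. With no filter CPI had 2 in footprints. Genes passing the filter in both assays, an alternative chosen after seeing the data, gave 1 in CPI for efficiency. Leaving out the mitochondrial reading frames moved no count by more than 1.5 times. The cause of these moves was not tested, apart from the lower depth by thinning.

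The replicate block gave for efficiency 17 over all isolates, 2 in AMH, 4 in BPL, 2 in BTT, 2 in CMP, 1 in CPI and 7 in CQC; BED, with no call as reported, had 1 lower. Same-numbered footprint and RNA-seq libraries deviated together with r between 0.27 and 0.71 in 6 isolates, but with 0.09 in BAN and 0.11 in CQC, so the numbers were not taken to pair the libraries.

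Leaving out single libraries gave ranges in mRNA of 32 to 34 over all isolates, 9 to 19 in AMH, 10 to 19 in BAN, 14 to 26 in BED, 1 to 6 in BPL, 4 to 13 in BTT, 19 to 27 in CMP, 3 to 6 in CPI and 5 to 15 in CQC. In footprints they were 20 to 29 over all isolates, 3 to 10 in AMH, 0 to 1 in BAN, 4 to 13 in BED, 0 to 6 in BPL, 2 to 5 in BTT, 1 to 3 in CMP, 0 to 3 in CPI and 11 to 19 in CQC. For efficiency they were 4 to 11 over all isolates, 0 to 1 in AMH, CMP and CPI, 0 to 2 in BAN, 0 to 4 in BPL, 1 to 2 in BTT and 0 to 7 in CQC. Footprints against mRNA gave 6 to 8 higher and 20 to 22 lower. No named gene reversed: of 245 values under the other settings 8 lost the call, 7 of them with thinned libraries, and of 624 with 1 library left out 9 did. Depth limits the footprints of BAN and CMP most.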
